A study of Canis lupus familiaris with 9 samples.

Results

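The collagen genes encode the chains of the trimeric proteins that hold skeletal muscle together. They were taken as every gene whose only symbol on the array has the form COL, a number, A, a number, with the probe set of the highest mean over all arrays standing for each gene. This gave 36 chains of 15115 genes with a single symbol: 10 fibrillar, 6 basement membrane, 8 FACIT (fibril-associated), 2 network and 10 other chains. Muscle came from 9 intact female beagles aged 4 years, all fed the same commercial diet and fasted overnight before sampling. In the ad libitum group 5 dogs (animals 2, 5, 6, 7 and 8) ate without restriction for 24 weeks, and in the control group 4 dogs (animals 1, 3, 4 and 9) received what held body weight at its starting level. Each dog gave 1 Affymetrix array, and values are GCRMA values taken as log2. Differences are ad libitum minus control, so a difference of 1 is a doubling on the linear scale. The comparison asks how unrestricted feeding goes with muscle transcript levels.

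Fibrillar collagens, types I, III and V here, form the banded fibres of tendon, fascia and the sheaths around muscle fibres. Type IV collagen forms the sheet of the basement membrane that wraps each muscle fibre and capillary, FACIT collagens sit on the surface of fibrils, and type VI forms beaded filaments that link the basement membrane to the fibrillar matrix. In muscle most collagen RNA comes from fibroblasts and fibro-adipogenic progenitors, while type IV chains are also made by endothelial cells and muscle fibres. In these bulk samples, fewer or more cells of a type and less or more RNA per cell cannot be told apart.

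The chains of the main muscle collagens had higher means in ad libitum muscle, and 0 of them passed the test. Of the 36 chains, 14 exceeded a log2 value of 4 in 4 or more dogs and were tested with limma among 18394 probe sets. All 14 had positive log2 differences, from 0.011 to 3.27 with a median of 1.74, while the median over all tested probe sets was -0.0082 and 48.4% of them were positive. After Benjamini-Hochberg adjustment over all tested probe sets 0 chains and 0% of probe sets passed 0.05 in either direction, and the lowest adjusted p of a chain was 0.796. Without adjustment 8 chains had p under 0.05 (limma), all higher in ad libitum dogs, against 3.71% of tested probe sets in that direction and 5.91% in either. For 12 chains the difference was 1 or more, as for 2.22% of probe sets. No chain passed the filter through ad libitum arrays alone.

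The group difference did not extend to every dog. In 11 of the 14 tested chains exactly 4 of the 5 ad libitum dogs lay above all 4 control dogs, and in none did all 5. At least 4 of 5 lay above all controls for 5.8% of tested probe sets, and all 5 for 0.739%. Among the 12 tested chains whose values spanned 1 or more over the 9 dogs, ad libitum dog 5 was the highest of all dogs in 12, whereas it was the highest in 10.1% of all tested probe sets. Ad libitum dog 7 was the lowest ad libitum dog in the same 12, lay within the control range in 7 and below all controls in 5. Over all tested probe sets dog 7 lay below all controls in 16.1%. The ad libitum dogs were thus widely spread: their SD exceeded the control SD in 13 of 14 chains, against 61% of tested probe sets, and the median SE of a chain's difference was 0.847, against 0.197 over all probe sets.

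**Figure D1:**
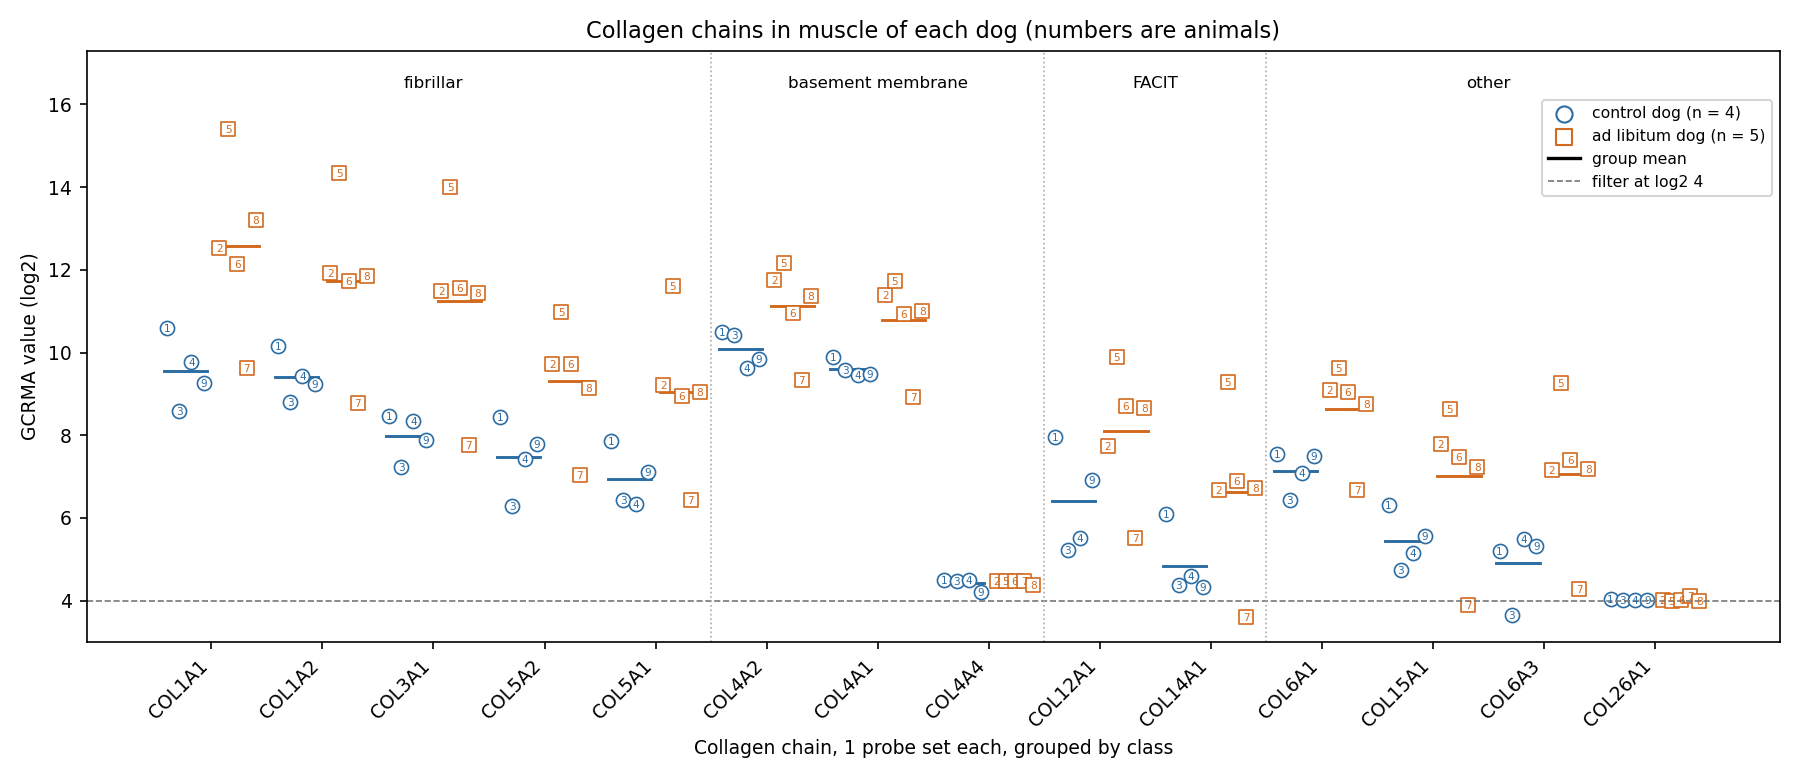
GCRMA values (log2, vertical axis) of the 14 tested collagen chains, with blue circles for the 4 control dogs, orange squares for the 5 ad libitum dogs, animal numbers inside the symbols and bars at the group means. Ad libitum dog 5 is the highest dog in 12 chains and dog 7 lies within or below the control range, while COL4A4 and COL26A1 are flat near the filter at log2 4.

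The 3 largest differences among the tested chains were fibrillar. COL1A1 and COL1A2 encode the chains of type I collagen, the main fibre collagen of the body. COL1A1 measured 10.60, 8.59, 9.77 and 9.27 in control dogs 1, 3, 4 and 9, and 12.54, 15.41, 12.13, 9.63 and 13.20 in ad libitum dogs 2, 5, 6, 7 and 8. Dogs 2, 5, 6 and 8 stood above every control, and dog 7 lay between the controls. The group means were 12.58 ± 2.08 (SD, n = 5) and 9.56 ± 0.84 (SD, n = 4), a log2 difference of 3.02 (SE 0.97, limma adjusted p = 0.796, unadjusted p = 0.012). COL1A2 measured 10.17, 8.81, 9.44 and 9.23 in the control dogs and 11.93, 14.33, 11.72, 8.79 and 11.86 in the ad libitum dogs in the same order. Dogs 2, 5, 6 and 8 again stood above every control, and dog 7 was the lowest of all 9. The COL1A2 difference was 2.31 (SE 0.89, limma adjusted p = 0.796).

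COL3A1 makes type III collagen, which forms the fine reticular fibres around muscle fibres. Its values were 8.46, 7.23, 8.35 and 7.88 in control and 11.50, 14.01, 11.56, 7.75 and 11.43 in ad libitum dogs. Ad libitum dogs 2, 6 and 8 lay close together, dog 5 stood well above them and dog 7 again lay between the controls. The difference was 3.27 (SE 1.01, limma adjusted p = 0.796, unadjusted p = 0.00975), with means of 11.25 ± 2.24 (SD, n = 5) and 7.98 ± 0.56 (SD, n = 4). Type V collagen chains co-assemble with type I and set the width of its fibrils. COL5A2 measured 8.44, 6.28, 7.41 and 7.79 in control and 9.72, 10.97, 9.73, 7.03 and 9.13 in ad libitum dogs, a difference of 1.84 (SE 0.73). COL5A1 measured 7.86, 6.43, 6.33 and 7.12 and 9.22, 11.61, 8.94, 6.44 and 9.06, a difference of 2.12 (SE 0.85). For both type V chains the groups overlapped through dog 7 alone, and the limma adjusted p was 0.796. All 5 tested fibrillar chains had an unadjusted limma p under 0.05.

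The remaining 5 fibrillar chains were not tested. COL5A3, the third chain of type V collagen, lay just outside the filter with 3 arrays above log2 4: it measured 3.75, 3.67, 3.32 and 3.49 in control and 5.18, 5.75, 4.61, 3.06 and 3.84 in ad libitum dogs. Dogs 2, 5, 6 and 8 stood above the controls there too and dog 7 below them, at values where GCRMA differences are uncertain in size. COL2A1 and COL11A2, chains of cartilage fibrils, and COL24A1 and COL27A1 stayed below log2 4 in every dog.

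Of the basement membrane chains, the ubiquitous pair COL4A1 and COL4A2 was higher in 4 ad libitum dogs and the other chains were low and flat. COL4A1 measured 9.88, 9.58, 9.45 and 9.49 in control and 11.40, 11.72, 10.94, 8.91 and 11.00 in ad libitum dogs. The control dogs lay in a narrow band, ad libitum dogs 2, 5, 6 and 8 stood above it and dog 7 below it. The difference was 1.20 (SE 0.50, limma adjusted p = 0.796, unadjusted p = 0.0378). COL4A2, whose product joins that of COL4A1 in a single heterotrimer, measured 10.49, 10.43, 9.63 and 9.84 in control and 11.76, 12.16, 10.97, 9.35 and 11.36 in ad libitum dogs, a difference of 1.02 (SE 0.51, limma adjusted p = 0.796, unadjusted p = 0.0752). Both chains placed the ad libitum dogs with 5 first, 2 second and 7 last. COL4A4, a chain of the kidney filter and other specialised basement membranes, measured 4.49, 4.48, 4.51 and 4.21 in control and 4.48, 4.48, 4.48, 4.48 and 4.38 in ad libitum dogs, and its difference was 0.036 (SE 0.10). It passed the filter without varying between dogs, with a span of 0.298. COL4A3, COL4A5 and COL4A6 stayed below log2 4 in every dog.

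COL12A1 and COL14A1, FACIT chains that bind fibril surfaces in tendon and the sheaths of muscle, also had higher means in ad libitum muscle. COL12A1 measured 7.95, 5.23, 5.52 and 6.92 in control and 7.74, 9.90, 8.72, 5.52 and 8.66 in ad libitum dogs. Control dog 1 lay above ad libitum dog 2 there, so 3 of the 5 ad libitum dogs cleared the controls, and the difference was 1.71 (SE 0.87, limma adjusted p = 0.796, unadjusted p = 0.0806). COL14A1 measured 6.10, 4.37, 4.58 and 4.34 in control and 6.68, 9.27, 6.89, 3.59 and 6.72 in ad libitum dogs, a difference of 1.78 (SE 0.95, limma adjusted p = 0.796, unadjusted p = 0.0912). Dog 5 was the highest by a wide margin and dog 7 the lowest of the 9 for COL14A1. COL16A1 was not tested, and it ran from 3.28 to 3.31 in control dogs and measured 3.77, 4.39, 3.50, 3.30 and 3.30 in ad libitum dogs. COL9A1, COL19A1, COL20A1, COL21A1 and COL22A1 stayed below log2 4.

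Among the other chains, those of type VI and type XV collagen had higher means in ad libitum muscle. COL6A1 measured 7.54, 6.42, 7.08 and 7.49 in control and 9.10, 9.63, 9.04, 6.67 and 8.75 in ad libitum dogs, a difference of 1.50 (SE 0.55, limma adjusted p = 0.796, unadjusted p = 0.0217). COL6A3, the longest chain of the type VI filament, measured 5.21, 3.65, 5.49 and 5.32 and 7.15, 9.26, 7.41, 4.28 and 7.17, a difference of 2.13 (SE 0.85, limma adjusted p = 0.796, unadjusted p = 0.0329). For both, dogs 2, 5, 6 and 8 lay above all controls and dog 7 above control dog 3 only. COL15A1, which lies at the outer face of the basement membrane of muscle and capillaries, measured 6.31, 4.74, 5.15 and 5.57 in control and 7.80, 8.63, 7.48, 3.90 and 7.23 in ad libitum dogs, a difference of 1.56 (SE 0.84, limma adjusted p = 0.796, unadjusted p = 0.0954). Dog 7 had the lowest COL15A1 value of all dogs. COL26A1 lay just inside the filter with a span of 0.11 over the dogs and a difference of 0.011 (SE 0.09). COL6A6, the epidermal chains COL7A1 and COL17A1, and COL13A1, COL23A1 and COL25A1 stayed below log2 4, as did the network chains COL8A2 and COL10A1.

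Over all 22 chains that were not tested, values ran from 1.94 to 5.75, and 20 spanned less than 0.5 over the 9 dogs. Group differences were below 0.1 in size for 19 of them. At such levels a difference in RNA may not show on the array. A further 9 chains, among them COL6A2, COL11A1 and COL18A1, were not analysed here.

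**Figure D2:**
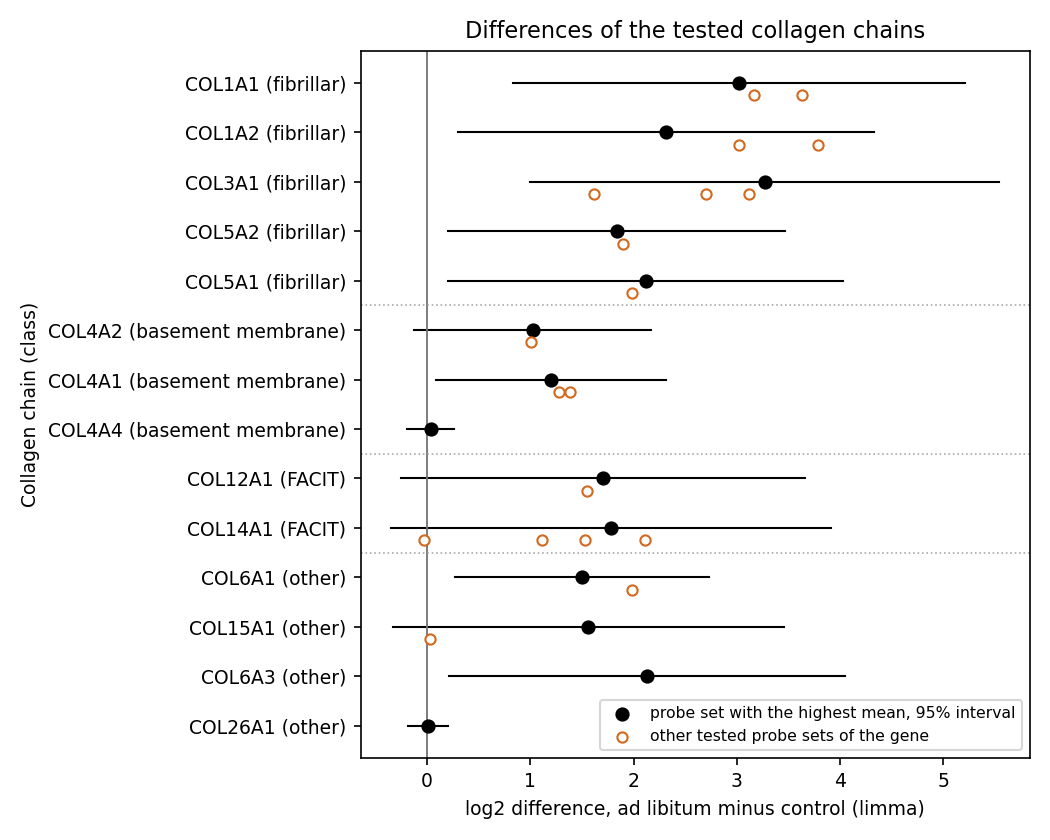
Log2 differences (ad libitum minus control, horizontal axis) of the 14 tested collagen chains, with black points and 95% intervals from limma for the probe set with the highest mean and open circles for the gene's other tested probe sets, 3 of which were tested through ad libitum arrays only. Differences run from 0.011 for COL26A1 to 3.27 for COL3A1, and the intervals are unadjusted.

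Other probe sets of the same genes gave the same direction with few exceptions. They measure the same RNA, so they check the probes and are not further replicates. Of the 97 probe sets with a sole collagen symbol 33 were tested. Of these, 3 (1 each of COL1A1, COL5A1 and COL14A1, none of them the probe set that stands for its gene) passed the filter through ad libitum arrays only and so had to differ. Of the other 30, 29 had positive differences, against 48.4% of all tested probe sets. These 30 include the 14 probe sets that stand for their genes, already given above. Without those 14, 19 probe sets were tested and 18 had positive differences, with the 3 that had to differ still counted. COL1A1 ran from 3.02 to 3.63 over 3 tested probe sets, of which 1 is among those 3. COL1A2 ran from 2.31 to 3.79 over 3, COL3A1 from 1.61 to 3.27 over 4 and COL4A1 from 1.20 to 1.39 over 3. For COL14A1 1 of 5 tested probe sets differed by -0.031, and for COL15A1 the other tested probe set by 0.025. Both of these were flat near log2 4 on all arrays.

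Set against the control mean of each gene, ad libitum dog 5 was first and dog 7 last of the ad libitum dogs in all 12 chains that varied, and the second highest dog was dog 2 in 6, dog 6 in 5 and dog 8 in 1. Over the 12 chains that varied, the median distance from the control mean was 3.92 in ad libitum dog 5, 2.23 in dog 2, 2.15 in dog 6, 2.00 in dog 8 and -0.63 in dog 7. Among controls it was 0.81 in dog 1, 0.014 in dog 9, -0.11 in dog 4 and -0.71 in dog 3. The distances differed in size between classes. In ad libitum dog 5 the median was 4.92 over the fibrillar chains and 2.10 over COL4A1 and COL4A2, in dog 2 it was 2.51 and 1.73, in dog 6 2.31 and 1.11, and in dog 8 2.45 and 1.33. Each of these 4 dogs was thus farther above the controls in fibrillar than in type IV chains. This contrast between classes was not tested, and different probe sets can compress a change differently.

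**Figure D3:**
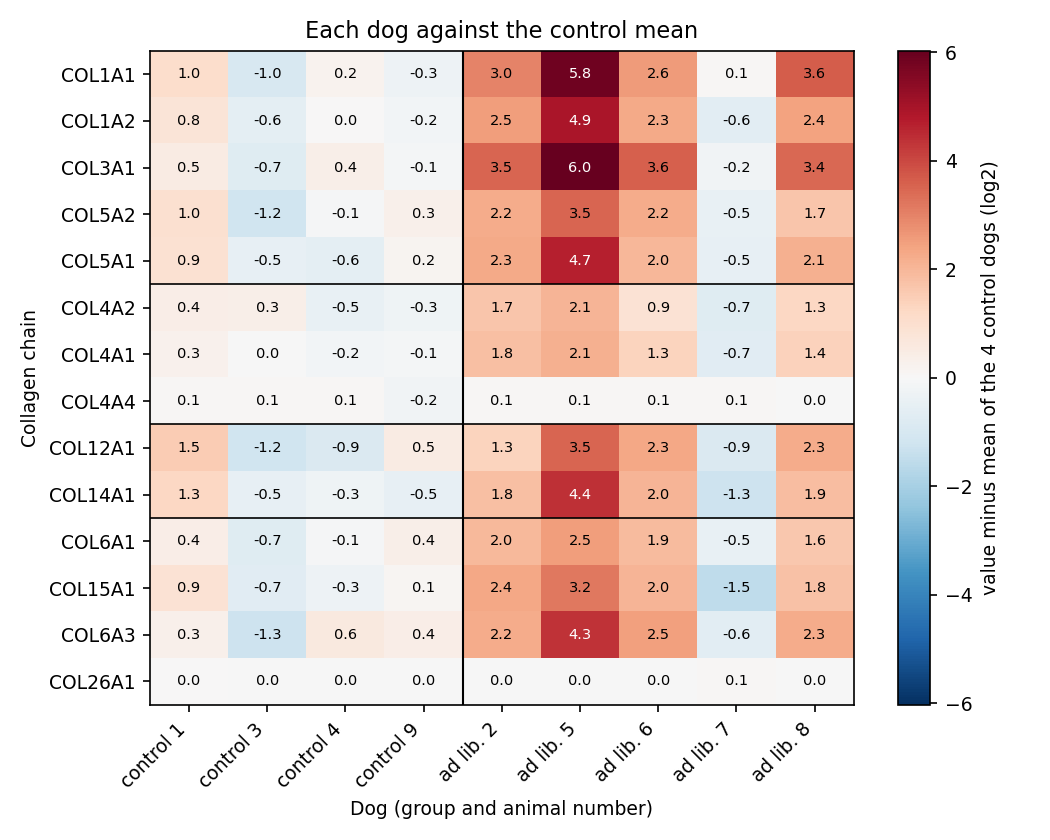
Value of each of the 14 tested collagen chains (rows, by class) in each dog (columns) minus the mean of the 4 control dogs, in log2, with red above and blue below the control mean. Ad libitum dogs 2, 5, 6 and 8 are above the control mean in all 12 chains that vary, and ad libitum dog 7 is below it in 11 of them.

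Some of these genes are neighbours in the dog genome. In the gene order of assembly UU_Cfam_GSD_1.0, COL4A1 and COL4A2 are adjacent and so are COL3A1 and COL5A2. Both members of each pair were tested and had positive differences, 1.20 and 1.02 for the first and 3.27 and 1.84 for the second. The other neighbouring pairs, COL4A3 with COL4A4, COL4A5 with COL4A6 and COL9A1 with COL19A1, spanned less than 0.5 over the dogs.

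The RNAs for making, cutting and binding collagen were examined in 6 lists. Of their 56 genes with a probe set, 36 were tested, 28 had positive differences and 0 passed an adjusted p of 0.05 (limma). Without adjustment 7 had p under 0.05, all higher, and the median difference was 0.39. Over all tested probe sets 48.4% had positive differences, and 3.71% were higher at an unadjusted p under 0.05 (limma). The lysyl oxidases, which cross-link collagen outside the cell, had 3 of 4 genes tested. LOXL2 measured 6.05, 4.84, 5.40 and 5.07 in control and 7.93, 9.72, 8.38, 4.43 and 6.95 in ad libitum dogs, a difference of 2.14 (SE 0.89), and LOXL3 differed by 1.47 (SE 0.49), with all control values of LOXL3 below log2 4, so that it passed the filter through ad libitum arrays only. LOXL3 is counted in the 28, the 7 and the median above, although it had to differ. In both LOXL2 and LOXL3 dogs 2, 5, 6 and 8 lay above the controls, and dog 7 was the lowest of all dogs. LOXL4 differed by 0.013, and LOX itself was above log2 4 in ad libitum dog 6 alone.

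Several enzymes modify collagen before secretion. Of 11 tested proline and lysine modifying genes 9 had positive differences with a median of 0.37. PLOD1, a lysyl hydroxylase, measured 7.98, 8.36, 7.66 and 7.82 in control and 8.64, 8.88, 8.63, 8.34 and 8.25 in ad libitum dogs, a difference of 0.60 (SE 0.18, limma adjusted p = 0.796, unadjusted p = 0.00862). For PLOD1 dogs 2, 5 and 6 lay above all controls, and dogs 7 and 8 just below control dog 3. P3H4 differed by 1.75 (SE 0.79), the prolyl 3-hydroxylase P3H2 by -0.90 (SE 0.49) and P4HB, the shared subunit of prolyl 4-hydroxylase, by 0.25 (SE 0.16). Control dog 3 alone held P3H2 high, at 6.81. Of the 9 folding and export genes 5 had positive and 4 negative differences, with a median of 0.016. Among them SERPINH1, the collagen chaperone HSP47, differed by 0.94 (SE 0.47) and the COPII coat genes SEC24D and SEC23A by 0.66 and -0.41, while TFG had 0.10.

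Of the genes that cut the ends from procollagen 3 of 8 were tested. PCOLCE, an enhancer of the C-proteinase, measured 7.85, 6.39, 7.43 and 7.14 in control and 9.25, 10.23, 9.23, 6.18 and 8.52 in ad libitum dogs, a difference of 1.48 (SE 0.71). The groups overlapped through dog 7, the lowest of all. BMP1, the C-proteinase itself, differed by 0.82 (SE 0.42) and PCOLCE2 by 0.40 (SE 0.49). Of the genes that degrade collagen, or inhibit its degradation, 5 of 10 were tested. MMP2, a gelatinase, measured 6.51, 4.84, 6.12 and 5.82 in control and 7.66, 10.29, 7.52, 5.82 and 8.31 in ad libitum dogs, a difference of 2.10 (SE 0.76). Dogs 2, 5, 6 and 8 lay above all controls for MMP2, and dog 7 among them. CTSK, a lysosomal collagenase, differed by 2.03 (SE 0.80) and TIMP2, an inhibitor of MMP2, by 0.88 (SE 0.31). All 5 tested genes of this list had positive differences, against 48.4% of all tested probe sets. An unadjusted limma p under 0.05 was met by 4, all higher, against 3.71% of probe sets in that direction. The interstitial collagenases MMP1, MMP8 and MMP13 stayed below log2 4 in every dog, with group differences of -0.040, -0.029 and -0.042. MMP9 and MMP14, also not tested, were above log2 4 in ad libitum dog 5 alone, at 10.1 and 4.79. Of the collagen receptors 5 of 10 were tested, with differences from -0.048 to 0.55, among them DDR2 at 0.55 (SE 0.40), DDR1 at 0.23 and ITGB1 at 0.21.

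**Figure D4:**
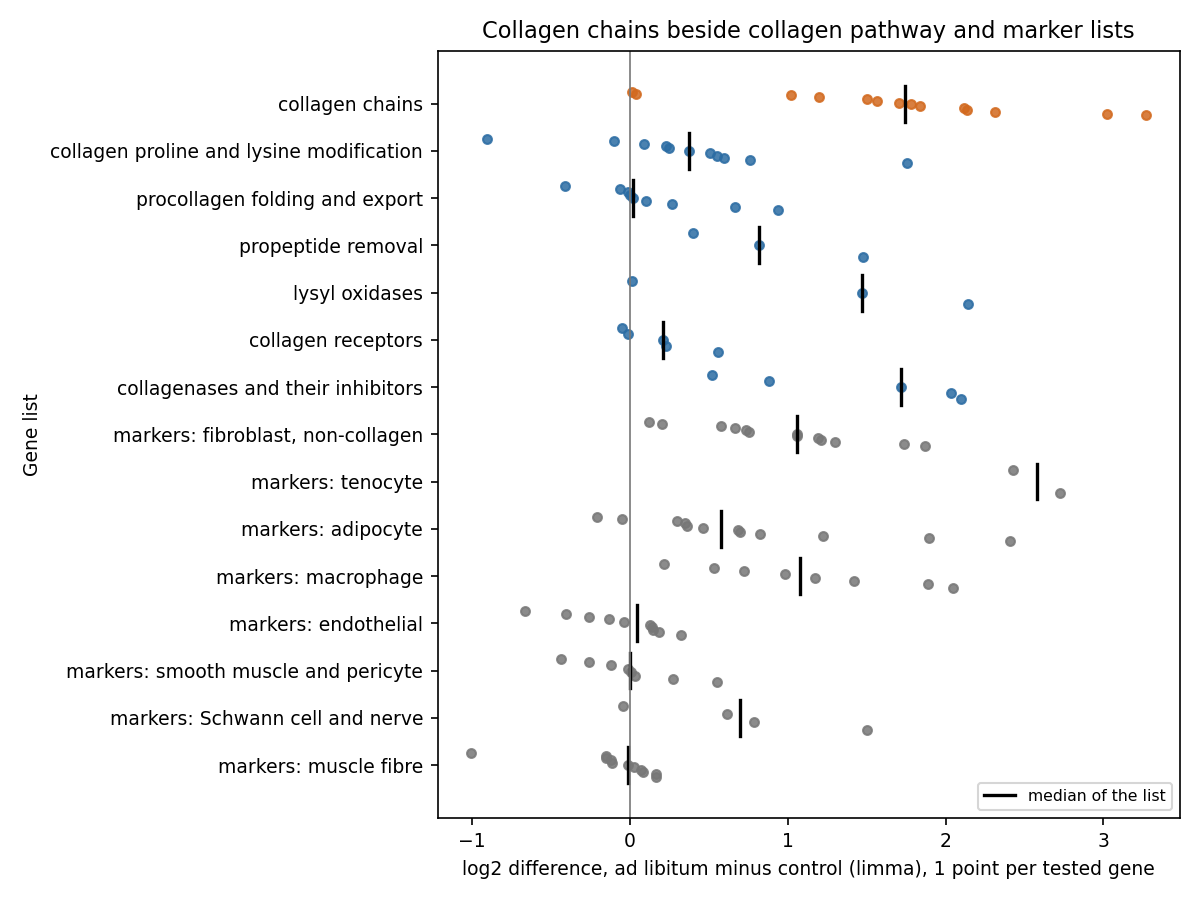
Log2 differences (ad libitum minus control, horizontal axis) of the tested genes of each list, 1 point per gene, with collagen chains in orange, 6 collagen pathway lists in blue, 8 marker lists in grey and black bars at the medians. Collagen chains have a median of 1.74. The medians of folding and export genes (0.016), endothelial markers (0.046) and muscle fibre markers (-0.011) lie near 0, with single genes farther from it.

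Markers of other cell types were measured beside the chains, and their part in the collagen difference was not tested. Muscle fibre markers were high in every dog, with 11 of 12 genes measured and a log2 summed level of 18.98 to 19.09 in control and 18.90 to 19.11 in ad libitum dogs. Non-collagen fibroblast markers were high in the same dogs as the chains. Of 14 genes 13 were tested, and 13 had positive differences with a median of 1.06, against 48.4% positive over all tested probe sets. The summed level was 13.84 to 15.20 in control and 14.10 to 15.92 in ad libitum dogs. The mean log2 value over the list was 9.80 in ad libitum dog 5, 9.40 in dog 6, 9.05 in dog 2, 8.62 in dog 8 and 7.31 in dog 7, against 8.50, 7.26, 8.05 and 7.98 in control dogs 1, 3, 4 and 9. Control dog 1 thus came close to ad libitum dog 8. PDGFRA, the receptor that marks fibro-adipogenic progenitors, differed by 0.12 (SE 0.22), and TCF21 was below log2 4 in every dog.

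Tenocyte markers, with 8 of 10 genes measured and 2 tested, had a summed level of 6.87 to 10.10 in control and 6.82 to 13.61 in ad libitum dogs. TNMD, tenomodulin, measured 8.85 in ad libitum dog 5, 3.26 in dog 6 and 3.20 in dog 8 and lay between 2.20 and 2.24 in all others. COMP measured 11.55 in ad libitum dog 6 and at most 5.19 in the rest. Both tested genes had positive differences, with a median of 2.58. FMOD, fibromodulin, measured 4.49, 3.16, 3.93 and 3.24 in control and 6.43, 7.03, 8.06, 3.32 and 5.83 in ad libitum dogs, a difference of 2.43 (SE 0.82, limma adjusted p = 0.796, unadjusted p = 0.0154). THBS4 measured 9.95, 5.80, 7.78 and 8.62 and 10.96, 13.16, 13.16, 5.63 and 10.90, a difference of 2.72 (SE 1.51). For FMOD and THBS4, as for COL1A1 and COL3A1, dogs 2, 5, 6 and 8 lay above all controls. The part of tendon tissue in the collagen difference was not tested in any dog. TNMD and COMP were below log2 4 in dogs 2 and 8, but TNMD in dog 8 was above the highest control (2.22). KERA, not tested, measured 4.21 in dog 8 and at most 3.68 in control dogs. Without ad libitum dogs 5 and 6 together, a choice made after seeing these values, COL1A1 differed by 2.23, COL3A1 by 2.25 and COL4A1 by 0.84, and the median over the tested chains was 0.97. The number of chains at an unadjusted limma p under 0.05 was then 2. This fit did not test the part of tendon tissue. Dogs 2 and 8 stayed in it, and they lay above all controls for FMOD and THBS4. Cartilage markers were measured in 6 of 6 genes, of which 0 were tested and 5 stayed below log2 4 in every dog. Their summed level was 5.08 to 5.15 in control and 5.13 to 6.87 in ad libitum dogs. The remaining gene, CHAD, measured 6.48 in ad libitum dog 6, 4.01 in dog 5 and at most 2.83 in control dogs. For CHAD 4 of the 5 ad libitum dogs lay above all controls.

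Macrophage markers, measured in 13 of 13 genes, had a summed level of 8.37 to 9.26 in control and 8.58 to 12.15 in ad libitum dogs. All 8 tested genes had positive differences, against 48.4% of all tested probe sets. An unadjusted limma p under 0.05 was met by 3, all higher, against 3.71% of probe sets in that direction. The mean log2 value over the list was 7.05 in ad libitum dog 5 and at most 5.78 in the other dogs. CD68 was below log2 4 in 8 dogs and measured 5.89 in ad libitum dog 5. Of 12 tested adipocyte markers 10 had positive differences, where 48.4% of all tested probe sets did. The summed level was 14.24 to 15.15 in control and 14.49 to 15.37 in ad libitum dogs. FABP4 and GPD1, with the highest means (13.32 and 13.26), weighed most in that sum. GPD1 (-0.21) and PNPLA2 (-0.050) had negative differences. LEP alone had all 5 ad libitum dogs above all controls, with a difference of 2.41 (SE 0.57, limma adjusted p = 0.796). The mean log2 value over the adipocyte list was 9.38, 8.54, 8.16 and 8.77 in control dogs 1, 3, 4 and 9, and 10.11, 9.53, 9.73, 8.62 and 9.29 in ad libitum dogs 2, 5, 6, 7 and 8. Dogs 2, 5 and 6 lay above all controls, dog 8 just below control dog 1 and dog 7 last of the ad libitum dogs. Endothelial markers had summed levels of 11.91 to 12.04 in control and 11.62 to 12.34 in ad libitum dogs. Of the 10 tested genes of that list 5 had positive and 5 negative differences. FLT1 differed by -0.67 (SE 0.17, limma adjusted p = 0.796, unadjusted p = 0.00345), with all 5 ad libitum dogs below all controls. Smooth muscle and pericyte markers had 14.73 to 14.94 in control and 14.53 to 14.91 in ad libitum dogs. DES, with the highest mean of that list (14.38), weighed most in its sum, which therefore says little of the other members. Of the 8 tested genes of that list 4 had positive and 4 negative differences. Schwann cell and nerve markers had summed levels of 7.51 to 8.79 in control and 7.59 to 9.96 in ad libitum dogs. Of the defining markers SOX10, CSPG4, NOTCH3, TNC and FCER1G were below log2 4 in every dog. The 3' minus 5' value of the GAPDH control probe sets, which rises as RNA is degraded, had a mean of 2.21 ± 0.0676 (SD) over the 5 ad libitum dogs and of 2.09 ± 0.107 (SD) over the 4 control dogs (two-sided exact permutation p = 0.0714, smallest possible 0.00794). By dog it was 2.12, 1.96, 2.22 and 2.08 in control dogs 1, 3, 4 and 9, and 2.29, 2.15, 2.24, 2.14 and 2.25 in ad libitum dogs 2, 5, 6, 7 and 8. Dogs 2, 6 and 8 lay above all controls, and dogs 5 and 7 within their range. The part of RNA quality in the collagen difference was not tested.

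The size of the differences depended on single dogs. Without ad libitum dog 7 the median over the tested chains was 2.38, the number of chains at an unadjusted limma p under 0.05 was 12, and COL4A1, COL3A1 and COL6A1 had the lowest adjusted p of the chains, 0.0918. Without ad libitum dog 5 the median was 1.26, with COL3A1 at 2.58 and COL1A1 at 2.32, and the number was 5. Leaving out other dogs in turn also changed the number of 8 chains: it was 2 without control dog 3, 3 without ad libitum dog 2, 4 without control dog 4 or ad libitum dog 6 or 8, and 5 without control dog 9. The share of all probe sets at an unadjusted limma p under 0.05 was not counted in these fits, so these numbers have no share beside them. In none of these fits did a chain pass an adjusted p of 0.05. The 12 chains that varied kept positive differences in all of these fits.

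**Figure D5:**
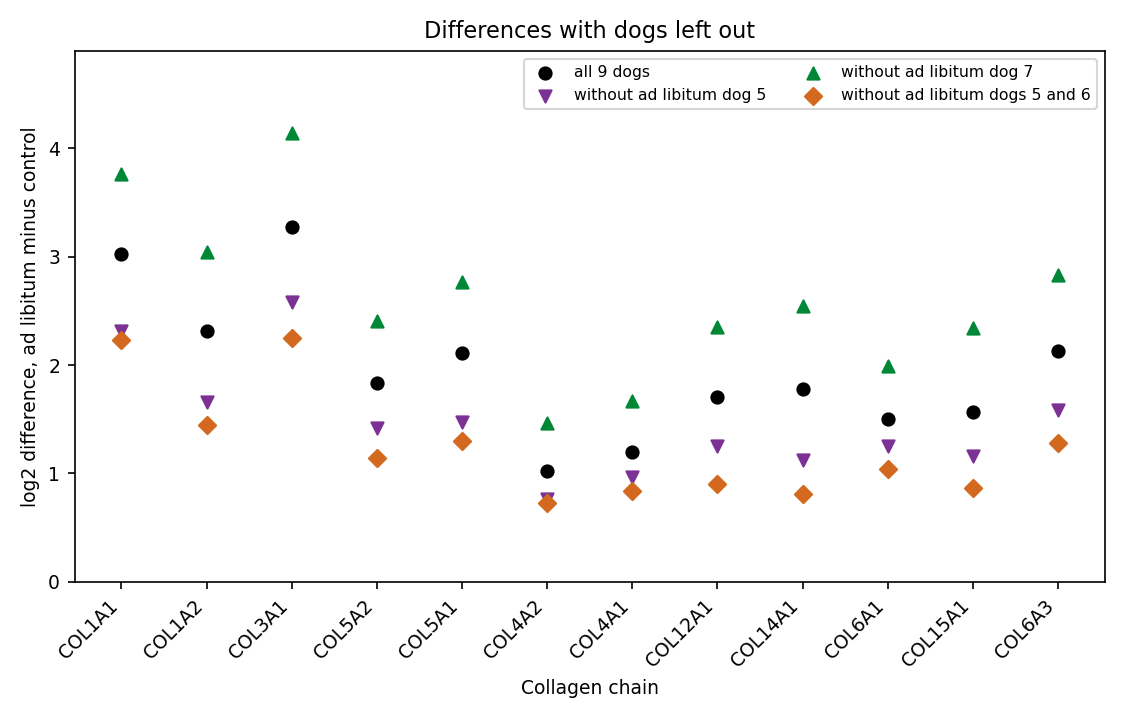
Log2 differences (ad libitum minus control, vertical axis) of the 12 collagen chains that varied between dogs, from limma with all 9 dogs (black circles), without ad libitum dog 5 (purple), without ad libitum dog 7 (green) and without ad libitum dogs 5 and 6 (orange). Every point is above 0, and COL3A1 moves from 3.27 to 4.15 without dog 7 and to 2.58 without dog 5.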

How the data were processed

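Muscle RNA of 9 dogs was measured on 1 array each. The deposited values are GCRMA values, per the submitters' processing notes, taken as log2 from their range of 0.652 to 16.6. GCRMA corrects background by probe sequence, and its quantile step would hide a shift of most transcripts. Groups came from the treatment label and dog numbers from the animal number. No batch is named in the labels, so none was tested. Of 43035 probe sets 111 controls were left out. Names came from the platform annotation: 29254 probe sets had 1 symbol, 439 several and 13231 none here. For 34 of the 36 chains the Entrez ID was found in the gene table of UU_Cfam_GSD_1.0, and 0 symbols changed. Probe sets above log2 4 on at least 4 arrays (18394) entered 1 model of group alone (limma 3.58.1, R 4.3.3, lmFit and two-sided eBayes) with Benjamini-Hochberg adjustment at 0.05. The fit was tested on simulated data. Arrays correlated at 0.976 to 0.994 over 36 pairs, and none were identical. Array number limits precision. Summed levels of marker lists are log2 of the summed linear values of all measured members.

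Members and lists were chosen with earlier results of these data known. Values by dog are given for up to 4 tested chains per class with the highest mean and up to 2 with the smallest p, and for COL5A1, COL5A3 and COL16A1, which were added after their values were seen. From each collagen pathway list the rule named up to 3 tested genes with the smallest p and the 1 with the highest mean. LOX and the MMP genes that were not tested were added after their values were seen, as were the marker genes named singly. Alternatives changed the low-value step (dropped, set at log2 6, or values raised to log2 4), the scaling (cyclic loess, array medians), the variance model (trend, robust, array weights), the probe set of a gene, or the dogs, leaving out each in turn. Leaving out ad libitum dogs 5 and 6 together was added after seeing the data. No DNA, RNA or protein sequence was used here.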

Additional observations from a re-analysis of the deposited data

Results flagged for a closer look

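In 10 of 68 gene and group combinations 1 dog stood apart from the others of its group by Dixon's 95% criterion. A single group of normally distributed values meets it in about 1 in 20. The combinations share the same 9 dogs and are not independent, so the count of 10 cannot be tested against that rate. Among collagen chains, ad libitum dog 7 was low for COL4A1 (at 8.91, the others from 10.94 to 11.72), control dog 1 was high for COL14A1 (at 6.10, the others from 4.34 to 4.58) and control dog 3 was low for COL6A3 (at 3.65, the others from 5.21 to 5.49). Chains near log2 4 met it with small gaps: COL4A4 in control dog 9 (at 4.21, the others from 4.48 to 4.51) and in ad libitum dog 8 (at 4.38, the others from 4.48 to 4.48), and COL26A1 in ad libitum dog 7 (at 4.11, the others from 4.00 to 4.01). Control dog 3 was high for P3H2 (at 6.81, the others from 4.56 to 4.58) and low for ITGB1 (at 7.06, the others from 7.72 to 7.85). Ad libitum dog 2 was high for LOXL4 (at 4.26, the others from 3.97 to 4.01) and ad libitum dog 6 was low for DDR1 (at 4.21, the others from 5.34 to 5.79).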

How the results depend on the processing

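Under 20 alternatives 0 collagen chains passed an adjusted p of 0.05 by limma, while at an unadjusted p under 0.05 there were 8 with all dogs. The count at an unadjusted p moved to 5 with no filter and to 2 without ad libitum dogs 5 and 6 together, and ran from 2 to 12 with 1 dog left out. The share of all tested probe sets at that p was not counted under the alternatives. The median over the chains was 0.013 with no filter, where all 36 enter and 22 of them are low, and ran from 1.26 to 2.38 with 1 dog left out. Among all tested probe sets 0 passed (limma, 1088 at an unadjusted p under 0.05), with 1 passing when values below log2 4 were raised to 4, and 0 to 1 with a dog left out (1 without ad libitum dog 8). Of 647 values of single genes under an alternative 639 kept direction and 8 turned: COL4A4 without control dog 9 (-0.035), COL26A1 without ad libitum dog 7 (-0.010), PCOLCE2 (-0.074) and ITGB1 (-0.019) without ad libitum dogs 5 and 6, ITGB1 by its second probe set (-0.190), DDR1 without control dog 4 (-0.041), and LOXL4 with array weights (-0.0033) and without ad libitum dog 2 (-0.041). With 1 dog left out COL4A4 ran from -0.035 to 0.064, COL26A1 from -0.010 to 0.018, LOXL4 from -0.041 to 0.031 and DDR1 from -0.041 to 0.497. The cause was not tested. When a gene's probe sets were averaged, 12 chains were tested with a median of 1.17, and array weights gave 12 chains at an unadjusted p under 0.05. No paired analysis was possible because each animal number belongs to 1 dog. Values near log2 4 or below carry background, which limits what can be said of the low chains.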
